A study of Mus musculus with 6 samples.

Results

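Neurotrophins, GDNF and their receptors were described in fibroblasts of the mouse embryo that were divided by the activity of Ebf2. The set was a list of 8 genes, Ngfr, Ntrk2, Ntrk3, Sort1, Bdnf, Ntf3, Gdnf and Gfra1, of which 7 were measured among 22180 genes in all. Ntf3 had no value that could be assigned to it and was not analysed here. The genes were chosen by their function and with the measured log2 difference between the 2 cell groups already known, so their differences are given without p-values. Whether a gene of the set passed the threshold in the fit of all genes is stated as a description of these arrays and is no independent test of it. Where a gene had several probe sets, the one with the highest mean over the 6 arrays stood for it.

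The cells came from the dorsal body wall of 129SV embryos at stage E14.5, all heterozygous for the reporter allele Ebf2(GFP), in which green fluorescent protein marks cells with Ebf2 activity. They were dissociated with collagenase and dispase and sorted for PDGFRα, a receptor of mesenchymal cells, and for GFP. RNA of Ebf2(GFP)+:Pdgfra+ cells (3 arrays) and of Ebf2(GFP)-:Pdgfra+ cells (3 arrays) was measured on Affymetrix arrays, and the comparison asked how the GFP-positive cells differ from GFP-negative cells of the same tissue. No group lacked the reporter allele, and the labels do not say whether the replicates came from separate litters or pools of embryos, so that errors and p-values reflect the spread of these arrays alone and part of it may be technical.

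Neurotrophins are secreted growth factors best known for keeping neurons alive. Each binds a receptor tyrosine kinase of the Trk family, and all of them bind Ngfr, the p75 neurotrophin receptor, which has no kinase and works together with Trk receptors or with sortilin. GDNF belongs to a separate family of ligands, which first bind a GFRα co-receptor on the cell surface and then the receptor tyrosine kinase Ret. Mesenchymal cells take part in these exchanges as sources of ligand for nerves and epithelia, and Ngfr is also used as a surface marker of mesenchymal stromal cells.

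The promoters of the genes with the largest differences in each direction are shown first. The arrays measure RNA, and these sequences lie just before its start. They are the 250 bases before the transcription start in RefSeq (GRCm38.p6), 5′ to 3′ on the strand of the gene, with GGGCGG or its reverse complement CCGCCC and TATAAA in capitals. Ngfr lies on the minus strand and its window is chr11:95587699-95587948. Gdnf lies on the plus strand, and the window of the first of its 2 listed starts is chr15:7809798-7810047.
Ngfr: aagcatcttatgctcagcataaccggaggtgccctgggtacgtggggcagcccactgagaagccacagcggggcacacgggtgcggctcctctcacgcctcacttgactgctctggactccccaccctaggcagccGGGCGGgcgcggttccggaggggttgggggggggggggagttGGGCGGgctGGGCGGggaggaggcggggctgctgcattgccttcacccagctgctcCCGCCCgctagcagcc
Gdnf: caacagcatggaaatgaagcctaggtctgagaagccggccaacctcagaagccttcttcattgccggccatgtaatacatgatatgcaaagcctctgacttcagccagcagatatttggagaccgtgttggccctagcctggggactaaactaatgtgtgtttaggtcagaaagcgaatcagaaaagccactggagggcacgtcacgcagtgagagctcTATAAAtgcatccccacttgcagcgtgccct
The Ngfr window holds 4 GGGCGG matches on either strand and no TATAAA, and the Gdnf window 1 TATAAA, 31 to 26 bases before the start, and no GGGCGG. The window of the other listed Gdnf start, not printed, holds neither. Of all 32851 promoter windows of the same length, 32.7% hold GGGCGG on either strand and 7.59% hold TATAAA on the strand of the gene, and these 2 motifs were chosen after the sequences were seen. Over 300 bases, with the 50 after the start included, the Ngfr window is 71.7% G and C, above the upper quartile of all windows (61.7%). RefSeq windows were matched for 6 of the 8 genes, 14 windows in all. Over the 250 bases before the start, GGGCGG is in 5 of the 14 and TATAAA in 1. CCCNNGGG, the inner part of the motif of EBF factors and its own reverse complement, is in 0 of these 14 and in 13.7% of all windows of 300 bases. With the T before it and the A after it that complete the motif, it is in 0.904% of all windows. A match is a run of letters and no bound site, and nothing about the factor follows from its absence in these windows.

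The arrays hold 41345 probe sets each and had median log2 levels of 6.66 to 6.71. Ebf2 followed the sort, with a mean log2 level of 12.00 ± 0.06 on the GFP-positive and 8.65 ± 0.53 on the GFP-negative arrays (SD, n = 3 each). All 9 mesenchyme markers measured, among them Dcn, Col1a1 and Col1a2, lay above log2 6.78, the 40th percentile of gene means, which served as a mark of dim genes because the files carry no detection calls. Of these 9, Lum and Twist2 were lower in GFP-positive cells at the threshold given next, and 1 to 2 of the 9 with 1 array left out. The mean of the 9 was 12.74 to 12.91 on GFP-positive and 13.05 to 13.10 on GFP-negative arrays. Their median log2 difference was -0.08, from -1.67 for Twist2 to 0.19 for Pdgfra, which was higher on every GFP-positive array without passing. Of the 22180 genes, 1439 (6.49%) passed limma's test at a Benjamini-Hochberg adjusted p under 0.05, 588 higher (2.65%) and 851 lower (3.84%) in GFP-positive cells. That fit did not pair the arrays. With the replicate number as a block 2228 passed, and 629, 667 or 762 passed when GFP-positive replicate 1, 2 or 3 was left out. In pooled RNA such as this, fewer cells of a type and less RNA per cell cannot be told apart.

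The receptor genes Ngfr, Ntrk2, Ntrk3, Sort1 and Gfra1 were higher on every GFP-positive array than on any GFP-negative array, whereas the ligand gene Gdnf was lower and the ligand gene Bdnf overlapped. All 7 measured genes had a mean above the dim mark. The 3 arrays of one group lay apart from the 3 of the other for 6 of the 7 (22% of all genes), 5 higher (12.3% of all genes) and 1 lower (9.78%). At the threshold above, 4 of the 7 passed (6.49% of all genes), Ngfr, Ntrk3, Sort1 and Gfra1, all 4 higher in GFP-positive cells (2.65% of all genes). These counts restate how the genes were chosen and nothing is read from them. The median log2 difference of the 7, GFP-positive minus GFP-negative, was 0.48 (0.63 without regard to sign), beside 0.02 (0.08 without regard to sign) over all genes. This median also follows from the choice of the genes, and nothing is read from it. Levels of different genes are not compared, since each probe set has its own response.

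**Figure D1:**
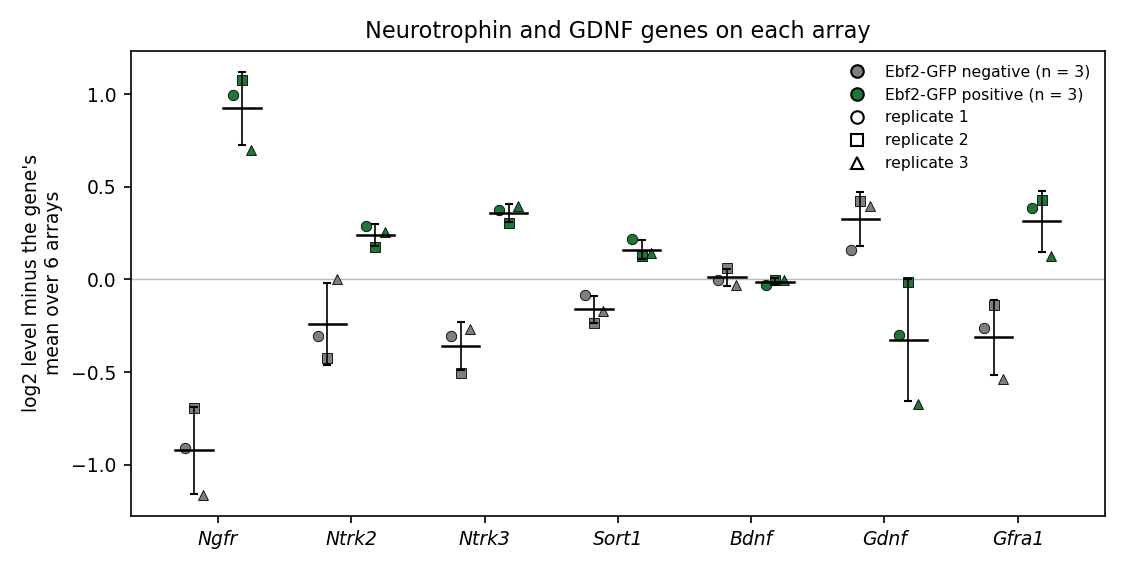
Each point is 1 array, as the log2 level of a gene minus that gene's mean over the 6 arrays, grey for GFP-negative and green for GFP-positive cells, with bars for the group mean and SD (n = 3) and marker shapes for the replicate number. Ngfr shows the widest separation of the groups, Gdnf is the gene with its GFP-positive arrays below, and the Bdnf groups overlap.

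Ngfr had the widest gap of the set. Its log2 level was 9.95, 10.17 and 9.70 in GFP-negative replicates 1, 2 and 3, and 11.86, 11.94 and 11.56 in GFP-positive replicates 1, 2 and 3. The lowest GFP-positive array thus stood above the highest GFP-negative array, and in both groups replicate 2 was highest and replicate 3 lowest. The means were 11.79 ± 0.20 with GFP and 9.94 ± 0.23 without (SD, n = 3 each), a log2 difference of 1.85 ± 0.14 SE or 3.60-fold. Between arrays of the same number it ran from 1.77 to 1.91. By size of difference in either direction Ngfr ranked 114 of the 22180 genes.

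The Trk receptors for BDNF and for neurotrophin 3 were both higher on every GFP-positive array, by less than Ngfr. Ntrk3, which encodes TrkC, the receptor of neurotrophin 3, was at 9.98, 9.78 and 10.02 in GFP-negative and 10.66, 10.59 and 10.69 in GFP-positive replicates 1 to 3. Its log2 difference was 0.72 ± 0.08 SE, 1.65-fold. Ntrk2, which encodes TrkB, the receptor of BDNF, was at 9.59, 9.47 and 9.90 in GFP-negative and 10.19, 10.07 and 10.15 in GFP-positive replicates 1 to 3. GFP-negative replicate 3 came closest to the GFP-positive arrays, and the difference within that number, 0.25, was the smallest of the 3 pairs, against 0.59 and 0.60. The log2 difference was 0.48 ± 0.11 SE, 1.40-fold. Ntrk2 did not pass the threshold above, and it passed with the replicate number as a block, after median centring, without dim probe sets, with a trend in the variance and without GFP-negative replicate 3. A probe set of Ntrk2 or Ntrk3 gives 1 value for the gene, and forms with and without the kinase, which both genes are known to make, were not told apart.

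Sort1 encodes sortilin, which sorts proteins between the Golgi and endosomes and joins Ngfr in binding the uncleaved pro-forms of neurotrophins. Its log2 level was 11.41, 11.26 and 11.32 in GFP-negative and 11.71, 11.62 and 11.63 in GFP-positive replicates 1 to 3. The groups did not overlap, with a difference of 0.32 ± 0.06 SE or 1.25-fold, the smallest of the 4 that passed. The call ended without any 1 array other than GFP-negative replicate 1. Another Sort1 probe set, with a mean of 7.24 and the same value on 4 of the 6 arrays, differed by 0.00, and with the mean of both probe sets the difference was 0.16 and did not pass.

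Bdnf, the gene of brain-derived neurotrophic factor and the ligand of TrkB, did not separate the groups. It was at 6.83, 6.90 and 6.81 in GFP-negative and 6.81, 6.83 and 6.83 in GFP-positive replicates 1 to 3. Its mean of 6.84 lay close to the dim mark, and 3 of the 6 arrays carried exactly the same value, which was so for 1881 genes (8.48%) with 3 or more equal values. The log2 difference was -0.02 ± 0.05 SE, and it turned to 0.03 when arrays were centred on the median of the genes tested. A difference in so dim a gene may not be detectable on these arrays.

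Gdnf, which encodes glial cell line-derived neurotrophic factor, was the gene of the set with lower levels in GFP-positive cells. It was at 7.71, 7.97 and 7.95 in GFP-negative and 7.25, 7.53 and 6.88 in GFP-positive replicates 1 to 3. The groups did not overlap, but GFP-positive replicate 3 lay well below replicates 1 and 2. The log2 difference was -0.66 ± 0.17 SE, 1.58-fold lower, and ran from -1.07 in pair 3 to -0.44 in pair 2. Without GFP-positive replicate 3 it was -0.48. Gdnf did not pass the threshold above and passed with the replicate number as a block.

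Gfra1, the gene of the co-receptor that binds GDNF, was higher where Gdnf was lower. Its log2 level was 10.49, 10.62 and 10.22 in GFP-negative and 11.14, 11.19 and 10.88 in GFP-positive replicates 1 to 3. The groups did not overlap, and replicate 3 was lowest in both. The difference was 0.63 ± 0.13 SE or 1.54-fold, and between arrays of the same number it ran from 0.57 to 0.66. The call ended without GFP-negative replicate 1 or 3 or GFP-positive replicate 1 or 2. A dim Gfra1 probe set, with a mean of 5.84, differed by 0.21, and with the mean of both probe sets the difference was 0.42 and did not pass. A probe set shared with Gm10007 differed by 0.07.

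**Figure D2:**
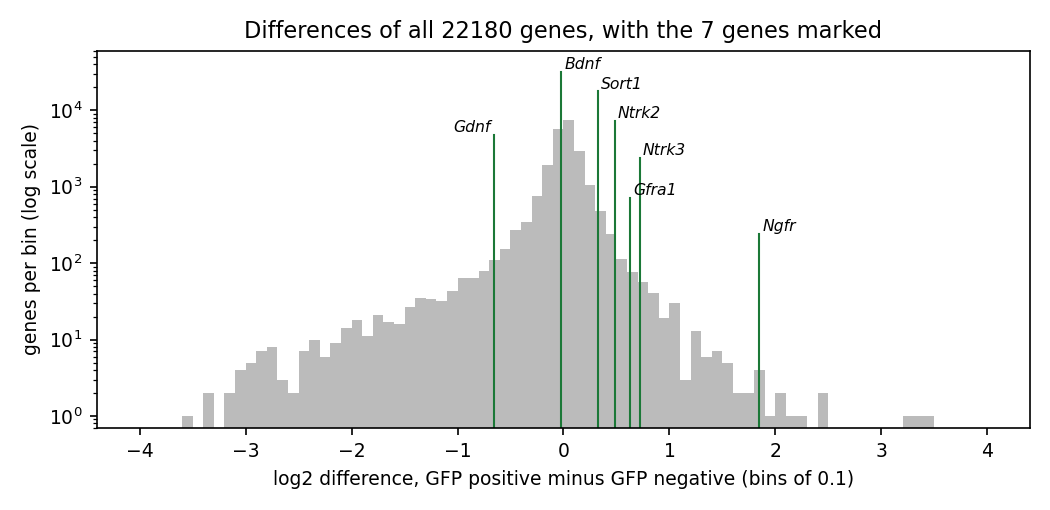
Number of genes (log scale) by log2 difference, GFP-positive minus GFP-negative, in bins of 0.1 for all 22180 genes, with green lines at the 7 genes described, whose heights carry no value. Ngfr at 1.85 lies in the far right of the distribution and Bdnf at -0.02 in its centre.

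Other genes of both pathways passed in either direction. Their rate was about that of all genes without the block and higher with it. A list of 56 further ligands, receptors, processing enzymes and adaptors had 50 measured members, of which 1 was higher and 3 lower at limma's adjusted p under 0.05. That is 8%, beside 6.49% of all genes. The median log2 difference was 0.04 (0.16 without regard to sign), beside 0.02 (0.08) over all genes. The arrays of the 2 groups did not overlap for 21 of the 50, a larger share than the 4890 of the 22180 genes (22%). Of its 18 measured ligands and receptors 2 passed (11.1%, beside 6.49% of all genes), both lower. With the replicate number as a block 13 of the 50 passed, 5 higher and 8 lower, a larger share than the 2228 of the 22180 genes. The list was chosen with earlier results of these data known, so nothing is read from these shares. Without GFP-negative replicate 1, GFP-positive replicate 2 or GFP-positive replicate 3 the count was 2, 1 or 2, all lower.

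Among GDNF family receptors, Gfra3 fell where Gfra1 was higher. Gfra3, the co-receptor of artemin, was at 8.14 ± 0.17 in GFP-positive and 9.67 ± 0.43 in GFP-negative cells (SD, n = 3 each), a log2 difference of -1.53 ± 0.21 SE (limma adjusted p = 0.00968). Without GFP-positive replicate 2 its limma adjusted p was 0.0521. The neurturin co-receptor gene Gfra2 had a difference of -0.49 ± 0.18 SE (limma adjusted p = 0.221), which passed with the block (0.0205). Ret, the kinase that all these co-receptors share, was at 8.33 ± 0.15 and 7.96 ± 0.13 (SD, n = 3 each). Its difference of 0.37 ± 0.10 SE had a limma adjusted p of 0.0898, or 0.0206 with the block, and every GFP-positive array lay above every GFP-negative array. Gfra4 and Gfral, co-receptors of persephin and of GDF15, differed by -0.17 and 0.05. Ncam1 and Sdc3, surface proteins that also bind GDNF, differed by -0.04 and 0.20, and none of these 4 passed. Sdc3 passed with a trend in the variance (limma adjusted p = 0.0418).

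Among GDNF family ligands besides Gdnf, none of 3 passed limma's test, and 2 did at an unadjusted p under 0.05. Artn, the gene of artemin, had a difference of 0.44 ± 0.10 SE (limma adjusted p = 0.0518) with a mean below the dim mark, and it passed with quantile normalization (0.0427), with both ways of median centring (0.0411 and 0.0259) and without GFP-negative replicate 3 (0.0139). Nrtn, the gene of neurturin, differed by -0.47 ± 0.17 SE and Pspn, that of persephin, by -0.14 ± 0.08 SE.

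Receptors related to sortilin did not follow Sort1 as a group. Sorcs3 was lower, at 8.71 ± 0.07 and 9.21 ± 0.20 (SD, n = 3 each), with a difference of -0.50 ± 0.10 SE (limma adjusted p = 0.0410). The call ended without any 1 array other than GFP-negative replicate 3 (adjusted p up to 0.152). Sorl1 differed by -0.51 ± 0.12 SE (limma adjusted p = 0.0614) and passed with the block (0.0194), without dim probe sets (0.0437) and without GFP-positive replicate 1 (0.0292). Sorcs1 differed by 0.38 ± 0.14 SE (limma adjusted p = 0.204, or 0.0280 with the block) and Sorcs2 by 0.03 ± 0.06 SE.

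Among genes outside the set, Nradd, Rtn4r and Lingo1, whose products resemble or join Ngfr at the cell surface, did not pass. Nradd, which encodes a death domain protein resembling Ngfr, differed by -0.34 ± 0.09 SE (limma adjusted p = 0.0834). It passed as lower with the block (0.0157) and after quantile normalization (0.0485). Rtn4r and Lingo1, which join Ngfr in the receptor of myelin inhibitors, differed by 0.13 and 0.02. None of the 6 measured genes of proteins that bind Ngfr inside the cell, such as Bex3, Maged1 and Traf6, passed limma's test, with 1 at an unadjusted p under 0.05 and differences between -0.17 and 0.15. Ntf5, the other TrkB ligand measured, was below the dim mark and differed by 0.06 ± 0.14 SE.

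**Figure D3:**
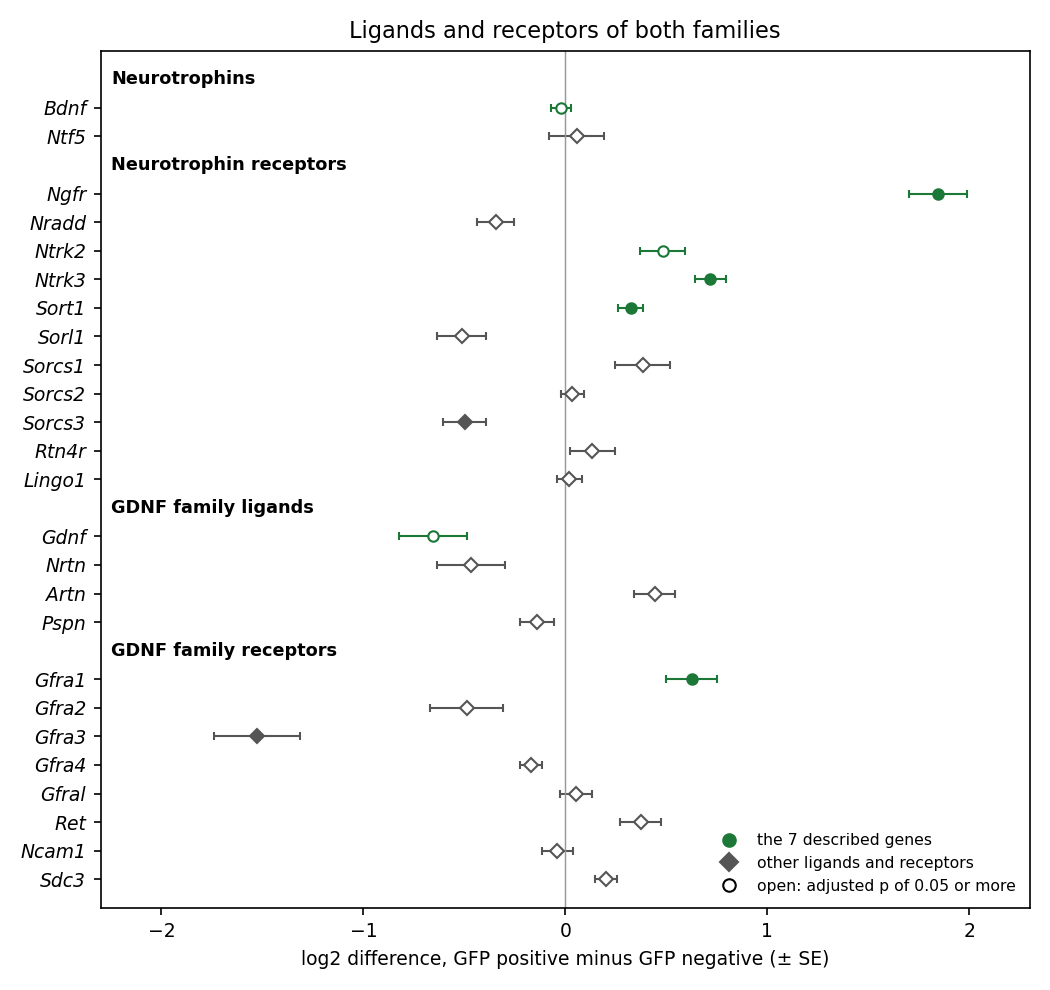
Points are log2 differences, GFP-positive minus GFP-negative, with limma's moderated SE as bars, for the 7 genes described (green circles) and the 18 other measured ligands and receptors (grey diamonds). Filled symbols passed at an adjusted p under 0.05, and Ngfr at 1.85 and Gfra3 at -1.53 stand farthest apart.

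Of the adaptor genes of Trk receptors and Ret, 1 of 16 measured passed (6.25%, beside 6.49% of all genes), with 4 at an unadjusted limma p under 0.05. Gab2, a docking protein of receptor kinases, was higher by 0.58 ± 0.10 SE (limma adjusted p = 0.0187), and its call ended without GFP-negative replicate 1 or any 1 GFP-positive replicate (adjusted p up to 0.0855). Of 10 genes of neurotrophin processing and binding, A2m passed. It encodes alpha-2-macroglobulin, a plasma protease inhibitor that binds neurotrophins, and was at 8.55 ± 0.04 and 10.17 ± 0.05 (SD, n = 3 each), lower by 1.62 ± 0.05 SE on the log2 scale (limma adjusted p = 9.94e-05). Of these 10, 5 had an unadjusted limma p under 0.05, and differences ran from -1.62 to 0.32. The proprotein convertase gene Furin, whose product cleaves pro-neurotrophins, was not among the 5 and differed by 0.09 ± 0.07 SE.

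Genes whose values over the 6 arrays followed those of a member most closely were found by the root mean square distance of log2 values centred on each gene's mean. For Ngfr these were Thbs4, a thrombospondin of the matrix (distance 0.09), Magel2, an imprinted gene of the MAGE family (0.15), and Fzd8, a Wnt receptor (0.16), with log2 differences of 1.79, 1.84 and 1.62. The nearest gene was Skap2 for Ntrk2 (0.02), Stxbp6 for Ntrk3 (0.05) and Rab9 for Sort1 (0.02). It was Phkb for Bdnf (0.009), Ier3 for Gdnf (0.10) and 6330403K07Rik for Gfra1 (0.03). With 6 arrays in 2 groups, such a distance mostly reflects the size of the group difference.

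Ngfr, Ntrk2, Ntrk3, Gfra3 and Ret are also known from nerves and neural crest cells, so markers of other cells were measured beside them. The 7 measured Schwann and neural crest markers had log2 differences from -1.64 to -0.27, with 6 at an unadjusted limma p under 0.05. Of the 7, 2 passed the threshold as lower in GFP-positive cells and none as higher. They were Fabp7 (-1.64 ± 0.22 SE, limma adjusted p = 0.00802) and Sox10 (-0.62 ± 0.11 SE, limma adjusted p = 0.0210), Sox10 being named after its values were seen. Their mean log2 level ran from 8.09 to 8.39 in GFP-negative and from 7.49 to 7.73 in GFP-positive arrays, and Cdh19 was below the dim mark. Without 1 array the count was 1 to 4, 4 without GFP-negative replicate 3 and 1 without any 1 GFP-positive replicate. The differences of Ngfr, Ntrk2, Ntrk3 and Ret were positive, those of Ntrk2 and Ret without passing the threshold, and that of Gfra3 was negative. The part of nerve and neural crest cells in the differences of Ngfr, Ntrk2, Ntrk3, Ret and Gfra3 was not tested.

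Of 9 measured neuron markers 2 were lower, Stmn2 (-0.83 ± 0.13 SE, limma adjusted p = 0.0131) and Prph, and Th and Elavl4 were below the dim mark. Their mean ran from 7.63 to 7.72 in GFP-negative and 7.43 to 7.49 in GFP-positive arrays. All 12 leukocyte markers were lower, among them Cd68, Fcer1g and Mrc1, with a mean of 9.28 to 10.13 in GFP-negative and 7.06 to 7.996 in GFP-positive arrays, and 7 of the 12 passed without GFP-negative replicate 1 or GFP-positive replicate 2. Of 9 mural cell markers 4 passed as lower and none as higher, Acta2 among the 4 (-0.63 ± 0.07 SE, limma adjusted p = 0.00450). The 5 others had differences of either sign, up to 0.35, and with the replicate number as a block 3 were lower and 1 higher. The mean of the 9 was 10.03 to 10.21 in GFP-negative and 9.78 to 9.86 in GFP-positive arrays. Of 8 endothelial markers, Emcn was higher and Cdh5 lower, with a mean of 8.80 to 9.50 in GFP-negative and 8.79 to 9.15 in GFP-positive arrays. The counts of neuron and of endothelial markers were 0 to 2 with 1 array left out, 0 neuron markers without GFP-positive replicate 1 and 0 endothelial markers without GFP-positive replicate 2. None of 8 muscle lineage markers passed limma's test, with 2 at an unadjusted p under 0.05. The part of these cells in the lower Gdnf, Sorcs3 and A2m values was not tested.

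**Figure D4:**
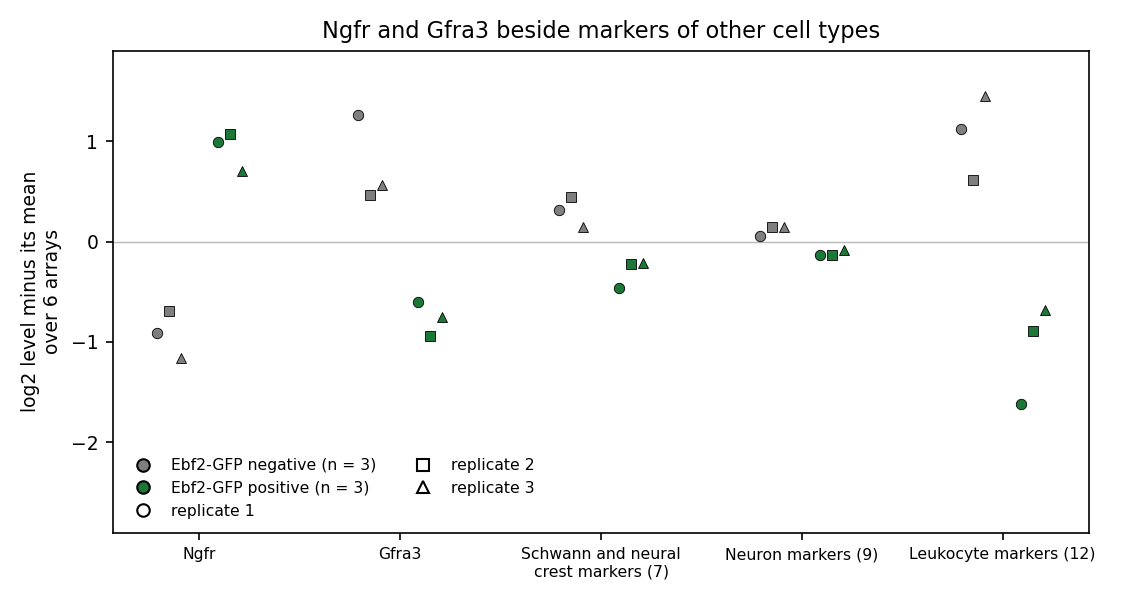
Each point is 1 array, as the log2 level of a gene, or the mean log2 level of a marker list (number of genes in brackets), minus its mean over the 6 arrays, grey for GFP-negative and green for GFP-positive cells, with marker shapes for the replicate number. Ngfr is higher on the 3 GFP-positive arrays, and Gfra3 and the 3 marker lists are lower on them.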

How the data were processed

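The deposited values are log2 levels of probe sets, made by the authors with RMA and limma per the submitters' processing notes. No version, filter or genome build was stated there, and the log2 scale was inferred from their range (3.41 to 14.32). RMA gives arrays a common distribution, which hides a shift shared by most genes. Of 41345 probe sets, 23521 list 1 gene and 1814 several in the platform table, and only the former were named, with symbols updated through RefSeq genes (GRCm38.p6).

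All 22180 genes of the 6 arrays were fitted, without a filter, in limma 3.58.1 (lmFit, eBayes; R 4.3.3), and p-values were adjusted by Benjamini-Hochberg over all genes. The fit was also run on simulated arrays drawn independently of each other. They lack the correlation of same-numbered arrays given below, so nothing about these data is read from them. The members and gene lists were chosen with earlier results of these data known. Named genes were the members, pathway genes that passed, the other ligands and receptors, the genes nearest to each member among those above the 40th percentile, and up to 3 markers of highest mean per list. Named outside this rule were Ebf2, Pdgfra, Furin, Bex3, Maged1 and Traf6, and the markers Sox10, Lum, Twist2, Cdh19, Th and Elavl4. Proteins were not compared.

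Same-numbered arrays of the 2 groups had deviations from their group means that correlated at 0.31 to 0.52, and other pairs at -0.38 to -0.02. On the data alone, the numbers were thus taken to pair the arrays. The SEs, adjusted p-values and calls given without mention of the block leave this pairing out. For Ngfr the SE was 0.14 without and 0.05 with the block, for Gfra1 0.13 and 0.05, and for Sdc3 0.054 and 0.055. The fit was repeated with the numbers as a replicate block, after median centring or quantile normalization, without dim probe sets, with other uses of a gene's probe sets, other variance models and array weights, and without each array. The number of arrays limits the precision.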

Additional observations from a re-analysis of the deposited data

How the results depend on the processing

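Signs under the 16 alternatives were followed only for the 7 measured genes of the set, the pathway genes that passed and the other ligands and receptors. None of these with a call changed sign. Among those without a call, 7 values of Bdnf, Gfral, Lingo1, Ncam1 and Ntf5 did. The median difference of the 7 measured genes stayed between 0.39 and 0.54, which is a description, as they were chosen with their differences known. Centring each array on the median of the genes tested was chosen after seeing the data. It gave 868 higher and 749 lower genes, 53.7% higher in place of 40.9%. With the replicate block 2228 of all genes passed in place of 1439, 1395 of them shared, and with 1 array left out 629 to 1067. The count of members that passed was 4, 2 with the mean of a gene's probe sets, 6 with the block and 2 to 3 with 1 array left out. Ngfr and Ntrk3 passed under each of the 16, which, as they were chosen with their differences known, is a description. Of the other pathway genes 4 passed, 13 with the block, 7 with quantile normalization, 7 with centring on the genes tested (4 of them higher) and 1 to 5 with 1 array left out. A2m was called under all 16. Over genes and alternatives, 293 of 316 values of the genes followed outside the set kept their side of the threshold. Of the rest, 13 were called only under the alternative and 10 lost their call. Of 112 values of the set, 109 moved by less than the replicate SD, 11 lost their call (Sort1 and Gfra1) and 7 gained one (Ntrk2 and Gdnf). Of 112 counts of marker genes, 20 moved by over 1.5 times, each with 1 array left out. The causes of these shifts were not tested. Levels near the dim mark, such as that of Bdnf, or below it, such as those of Artn and Ntf5, limit what a difference can show.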
